A study of Mus musculus with 4 samples.

Results

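The receptors EGFR and ERBB2 to ERBB4, the fibroblast growth factor receptors FGFR1 to FGFR3 and the ligands FGF2, neuregulin 1 and heparin-binding EGF-like growth factor were examined in mouse adult neural stem cells after knockdown of Ogt. Their 10 genes (Egfr, Erbb2, Erbb3, Erbb4, Fgfr1, Fgfr2, Fgfr3, Fgf2, Nrg1 and Hbegf) were listed by name, and all 10 were found among the 25261 genes of the deposited files. Ogt encodes O-GlcNAc transferase, which attaches N-acetylglucosamine to nuclear and cytoplasmic proteins. The cells were labelled as adult neural stem cells of C57BL/6 mice aged 8 weeks. In shOGT (2 libraries) a lentivirus carried a short hairpin RNA against mouse Ogt, and in ctrl (2 libraries) it carried a scrambled hairpin, so that both groups were infected. The labels give neither the hairpin sequence nor its promoter, the culture medium or the share of cells infected. They also leave unstated if replicate libraries were made from different cultures or animals, so the p-values reflect a spread between libraries that may be purely technical.

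ERBB and FGF receptors are cell surface tyrosine kinases. Binding of a ligand joins receptors into dimers, whose kinases then recruit adaptors that switch on RAS and the ERK kinases, and ERK in turn induces inhibitors of its own pathway. EGF and FGF2 are the mitogens commonly used to grow neural stem cells in culture. EGFR marks activated stem cells and their dividing progeny in the adult brain, FGFR3 is abundant in astrocytes and radial glia, ERBB4 is found in migrating neuroblasts and interneurons, and ERBB3 in the oligodendrocyte and Schwann cell lineages.

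Values are the deposited normalized signal per gene, which totalled 16689493 and 16736001 in shOGT and 16863191 and 16953670 in ctrl. Ogt measured 3379 and 3516 in shOGT and 4112 and 4137 in ctrl, which is -0.26 ± 0.04 as a log2 fold change (SE, adjusted p = 0.00876 in limma). Of the neural stem cell markers, Sox2 measured 5250.1 and 5334 in shOGT and 5339 and 5429 in ctrl, and Nes, which encodes nestin, 15395 and 13956 in shOGT and 13187 and 14174 in ctrl. Of the other markers of these cells, Fabp7 and Id1 were lower in shOGT. The 4 microglia markers found in the files summed to 8.51 and 10.4 in shOGT and 9.97 and 6.94 in ctrl, and the endothelial markers to 50.0 and 65.0 in shOGT and 40.9 and 43.6 in ctrl. In bulk RNA, fewer cells of a type and less RNA per cell cannot be told apart.

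Erbb4 was the 1 gene of the 10 that passed the test. The change in its mean signal was -23.3% in shOGT, relative to ctrl. The other 9, which included the abundant receptors Egfr and Fgfr1, did not pass the test. Over all 21829 genes tested, 4.86% passed (limma, Benjamini-Hochberg adjusted p under 0.05), 1.96% higher and 2.9% lower in shOGT. The shOGT and ctrl libraries did not overlap in 6 of the 10 genes, 4 of them higher in shOGT (Egfr, Erbb2, Fgfr1 and Fgf2) and 2 lower (Erbb4 and Fgfr3). The same held for 49.3% of all genes tested. The median log2 fold change of the 10 was 0.07, against 0.001 over all genes.

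To show the DNA ahead of the ERBB receptor that fell and of the most abundant ERBB receptor, the 250 bases upstream of the RefSeq start of Erbb4 (GRCm38.p6, chr1:69108060-69108309, minus strand) and of Egfr (chr11:16751953-16752202, plus strand) are given 5′ to 3′, with CpG dinucleotides in capitals.
Erbb4: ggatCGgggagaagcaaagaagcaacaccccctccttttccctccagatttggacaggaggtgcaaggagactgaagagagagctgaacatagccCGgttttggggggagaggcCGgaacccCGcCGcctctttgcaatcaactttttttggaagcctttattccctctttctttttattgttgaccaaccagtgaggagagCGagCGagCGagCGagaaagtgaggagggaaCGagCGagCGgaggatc
Egfr: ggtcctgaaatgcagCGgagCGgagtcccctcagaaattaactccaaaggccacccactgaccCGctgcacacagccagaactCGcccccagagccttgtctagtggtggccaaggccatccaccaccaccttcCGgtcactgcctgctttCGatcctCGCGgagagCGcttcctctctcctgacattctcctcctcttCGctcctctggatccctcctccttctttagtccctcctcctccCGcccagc
The Erbb4 window held 12 CpG dinucleotides and 54% G and C, and the Egfr window 11 and 60.8%, where the median over 32851 such windows of RefSeq starts was 6 and 52.4%. Neither window held TGGGAA on either strand, the core of the motif bound by RBPJ, the DNA-binding partner of Notch, whose signalling the series title names. It was found in 21.6% of all windows. Windows were available for 6 of the 10 genes, and among these TGGGAA occurred in 1, that of Fgfr2.

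Compared per length of exon, the 10 genes spanned a wide range of levels. In shOGT, Fgfr1 stood at 639 ± 17.7 signal per kb, Fgfr3 at 559 ± 44.9 and Egfr at 478 ± 20.3 (SD, n = 2). In ctrl, Fgfr3 stood at 636 ± 36.6, Fgfr1 at 608 ± 5.68 and Egfr at 452 ± 12.02. The order of the means of Fgfr1 and Fgfr3 thus differed between the groups, and in ctrl their gap was smaller than the SD of Fgfr3. In ctrl 2 alone Fgfr1 stood above Fgfr3, at 612.5 against 610.5, as in shOGT. These 3 receptor genes ranked above 90.7% to 93.4% of the genes tested. Hbegf followed at 131 ± 0.340 signal per kb in shOGT and 125 ± 11.5 in ctrl. Next came Erbb2, Fgfr2 and Erbb4, at 63.5 ± 9.25, 50.9 ± 2.41 and 47.0 ± 0.334 signal per kb in shOGT and 53.5 ± 0.878, 48.6 ± 2.02 and 61.3 ± 3.02 in ctrl. Erbb4 was the highest of these 3 in ctrl and the lowest in shOGT. Fgf2 stood at 20.5 signal per kb in shOGT and 17.0 in ctrl, Nrg1 at 2.33 in shOGT and 2.64 in ctrl, and Erbb3 at 0.667 in shOGT and 0.661 in ctrl.

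**Figure D1:**
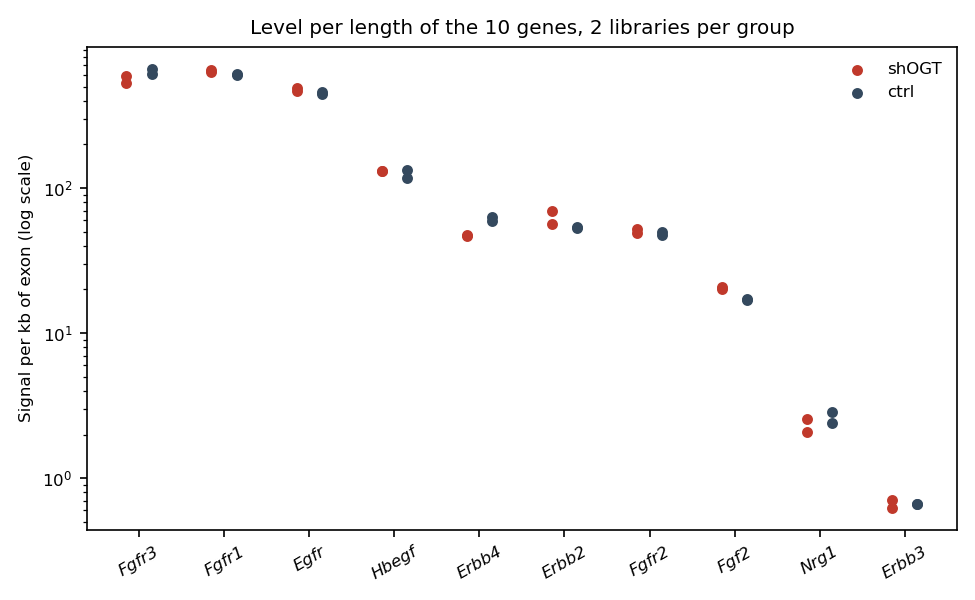
Deposited signal per kb of exon for the 10 genes (log axis), 2 libraries each of shOGT (red) and ctrl (dark blue), ordered by the ctrl mean. Fgfr1, Fgfr3 and Egfr lie near the top, and Erbb3, at 0.667 in shOGT and 0.661 in ctrl, at the bottom.

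Erbb4 encodes a receptor of the neuregulins that also binds HB-EGF. It measured 584 and 578 in shOGT and 784 and 731 in ctrl. The groups did not overlap, and the gap between them was larger than the spread within either. Its mean was 581 ± 4.13 in shOGT and 757 ± 37.3 in ctrl (SD, n = 2 each), a change of -23.3% and a log2 fold change of -0.38 ± 0.07 (SE, 95% interval -0.53 to -0.23, limma adjusted p = 0.0138). Leaving out any 1 library gave log2 fold changes of -0.43 to -0.33. The call was lost without shOGT 1 (adjusted p = 0.287), without shOGT 2 (0.2885), with no filter (0.123), with quantile normalization (0.116) and without the variance trend (0.312), settings in which 0 of all genes passed in limma. Erbb4 (ENSMUSG00000062209) lies on the minus strand of chromosome 1 at 68032186 to 69108059 (GRCm38), and its exons overlap no other annotated gene.

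Genes that mark the neuronal cells in which Erbb4 is known did not pass the test. Of 10 neuroblast and neuron markers 0 were higher and 0 lower, against 1.96% and 2.9% of all genes tested. The summed signal of the 10 markers was 476 and 608 in shOGT and 477 and 501 in ctrl, with none at 0. Dcx and Gad2 are named here after their values were seen. Dcx, which marks neuroblasts, measured 19.1 and 29.2 in shOGT and 40.9 and 66.5 in ctrl (log2 fold change -1.11, limma adjusted p = 0.0894). Gad2, an enzyme of interneurons, measured 27.6 and 23.6 in shOGT and 11.97 and 11.9 in ctrl (adjusted p = 0.127). The part of such cells in the fall of Erbb4 was not tested.

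**Figure D2:**
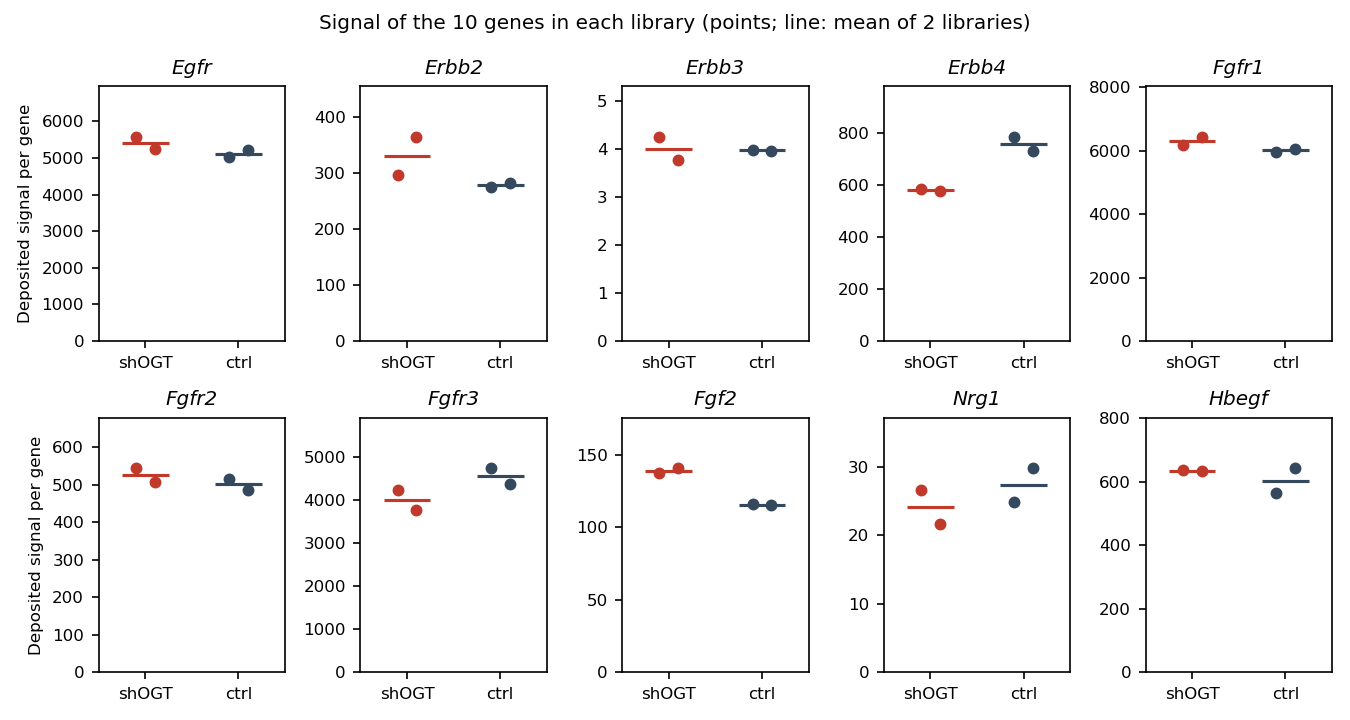
Deposited signal of each of the 10 genes in the 2 shOGT libraries (red, left) and the 2 ctrl libraries (dark blue, right), with a line at each mean and each axis starting at 0. Erbb4 and Fgfr3 are lower in both shOGT libraries, and Fgf2 and Erbb2 are higher.

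Egfr, the receptor of EGF, TGF-alpha and HB-EGF, measured 5573 and 5249 in shOGT and 5020.3 and 5213 in ctrl. Both shOGT values were above both ctrl values, by a margin smaller than the spread within either group. The log2 fold change was 0.08 ± 0.04 (SE, 95% interval -0.02 to 0.18, limma adjusted p = 0.345), an interval that holds no change larger than 0.18. With 1 library left out it was 0.0371 (without shOGT 1) to 0.124 (without shOGT 2). Erbb2, the partner receptor with no known ligand of its own, measured 297 and 365 in shOGT and 275 and 282 in ctrl. Its higher value rested on shOGT 2, since the log2 fold change of 0.24 ± 0.11 (adjusted p = 0.273) was 0.09 without that library. Erbb3, whose kinase is impaired and which signals through its partners, measured 4.25 and 3.77 in shOGT and 3.99 and 3.97 in ctrl. Each of these values is 4 times the smallest step between values in its library, so that a count of 4, with an exact Poisson 95% interval of 1.09 to 10.2, would underlie each. That interval covers counting error alone, and a difference in Erbb3 was not detectable at this depth.

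Within the ERBB family, Egfr made up 82.4% and 79.8% of the summed receptor signal per kb in shOGT and 79.1% and 80.2% in ctrl. The share of Erbb4 was 7.91% and 8.05% in shOGT and 11.3% and 10.3% in ctrl, and that of Erbb2 was 9.54% and 12.1% in shOGT and 9.43% and 9.42% in ctrl. Erbb3 stood at 0.108% to 0.118% in all 4 libraries. Erbb4 thus ranked above Erbb2 in both ctrl libraries and below it in both shOGT libraries. Among markers of the oligodendrocyte lineage, in which Erbb3 is known, Olig1 and Olig2 had a high signal. Sox10 was low, at 23.4 and 18.9 in shOGT and 25.9 and 29.8 in ctrl. Of 9 markers of that lineage 0 were higher and 3 lower (Pdgfra, Gpr17 and Lhfpl3), against 1.96% and 2.9% of all genes tested. The list median of these markers was -0.26 on the log2 scale, with none at 0. All but Olig1 and Olig2 had negative log2 fold changes. The summed signal, 62297 and 61469 in shOGT and 60407 and 61301 in ctrl, came mostly from Olig1 and Olig2.

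Fgfr3, a receptor of several FGFs, was lower in both shOGT libraries but did not pass the test. It measured 4229 and 3775 in shOGT and 4740.03 and 4369.6 in ctrl. The groups did not overlap, but the gap between shOGT 1 and ctrl 2 was smaller than the spread within either group. Its log2 fold change of -0.19 ± 0.06 (SE, 95% interval -0.32 to -0.05) missed the threshold (limma adjusted p = 0.116). It passed at a minimum value of 10 (adjusted p = 0.0275) and without ctrl 2 (-0.25, adjusted p = 0.00428), and it was -0.11 without shOGT 2 (adjusted p = 0.5101). Exons of Fgfr3 share 998 bases with G630022F23Rik on the opposite strand, which measured 29.8 and 21.7 in shOGT and 35.9 and 37.7 in ctrl, and it is not stated whether counting used strand.

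Of the 7 markers of astrocytes, a cell type in which Fgfr3 is known, 0 were higher and 2 lower. Over all genes tested, 1.96% were higher and 2.9% lower. The 2 lower markers were the glutamate transporter gene Slc1a2 (log2 fold change -0.63) and the connexin gene Gja1 (-0.20). In all, 3 of the 7 log2 fold changes were positive and 4 negative. Gfap, named after its values were seen, measured 1185 and 1762 in shOGT and 1125 and 1169 in ctrl (0.33, limma adjusted p = 0.234). The summed signal of the 7 was 64387 and 69889 in shOGT and 71003 and 70947 in ctrl, with none at 0. The part of such cells in the level of Fgfr3 was not tested.

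Fgfr1, the most abundant FGF receptor gene in shOGT per length, measured 6187 and 6434 in shOGT and 5969 and 6048 in ctrl. Its log2 fold change was 0.07 ± 0.04 (SE, 95% interval -0.01 to 0.15, limma adjusted p = 0.342), and it was 0.0422 without shOGT 2. Fgfr2, a receptor shared by glial and epithelial cells, measured 543 and 508 in shOGT and 517 and 487 in ctrl, with overlapping groups (0.07 ± 0.07, interval -0.10 to 0.23, adjusted p = 0.688). Its log2 fold change was 0.0185 without shOGT 1, 0.0244 without ctrl 2, 0.109 without ctrl 1 and 0.115 without shOGT 2. The annotated span of Fgfr2 reaches Ctbp2, with 314 shared exonic bases on the same strand, so that reads there may have been counted for either gene. Fgfr1 made up 49.3% and 53.0% of the summed signal per kb of these 3 receptor genes in shOGT and 45.9% and 48.2% in ctrl. The share of Fgfr3 was 46.5% and 42.9% in shOGT and 50.3% and 48.1% in ctrl, and that of Fgfr2 was 3.71% to 4.14% in all 4 libraries.

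**Figure D3:**
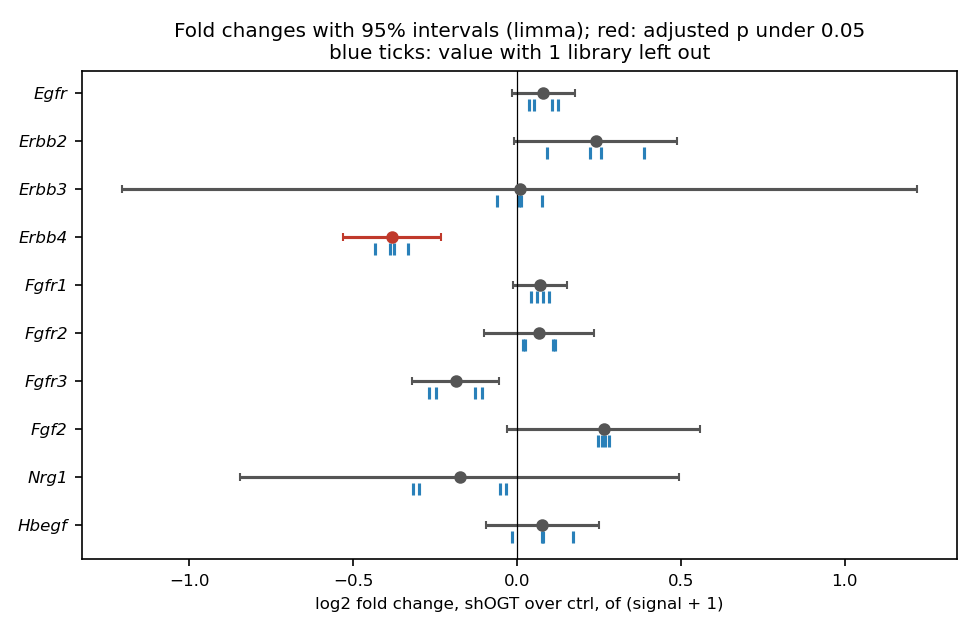
Log2 fold change of signal + 1, shOGT over ctrl, for the 10 genes, with 95% intervals from limma (bars) and the values with 1 library left out (blue ticks). The interval of Erbb4, -0.53 to -0.23, is the 1 marked as passing the adjusted threshold, and that of Erbb3 is the widest.

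Among the ligands, Fgf2, the mitogen of stem cell cultures, measured 137 and 140.5 in shOGT and 116 and 115 in ctrl. The groups were apart by more than the spread within either, and the mean was 20.3% higher in shOGT. Its log2 fold change of 0.26 ± 0.13 (SE, 95% interval -0.03 to 0.56) did not pass the test (limma adjusted p = 0.31), and it was 0.25 to 0.28 with any 1 library left out. Exons of Fgf2 share 640 bases with Nudt6 on the opposite strand, so that without strand some reads of the pair cannot be told apart. Nudt6 measured 77.6 and 73.5 in shOGT and 62.8 and 91.3 in ctrl. Hbegf, a membrane-anchored ligand of EGFR and ERBB4, measured 636 and 633 in shOGT and 563 and 642 in ctrl (0.08 ± 0.08, adjusted p = 0.641), and the shOGT values lay within the ctrl range. Nrg1, a ligand of ERBB3 and ERBB4, was low, at 26.6 and 21.7 in shOGT and 24.9 and 29.8 in ctrl (-0.18 ± 0.30, interval -0.85 to 0.49, adjusted p = 0.812). The value for Nrg1 was -0.0343 without shOGT 2, -0.0522 without ctrl 2, -0.30 without ctrl 1 and -0.32 without shOGT 1.

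Other genes of the pathway were taken from 11 lists of 141 genes, of which 127 were tested. Of these 8 were higher and 11 lower in shOGT, and 10 higher and 8 lower when every library was scaled to the same total. Over all 21829 genes tested 4.86% passed, 427 higher and 633 lower, and after that rescaling the split was 593 higher and 585 lower. The calls named from here on were lost without shOGT 1 and without shOGT 2, where 0 genes passed in limma and 3229 and 3186 had an unadjusted p under 0.05. Without ctrl 1 there were 17 calls among the 127 genes, and without ctrl 2 there were 19.

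Of the other EGF family ligands 0 of 7 tested passed, and 6 of the 7 log2 fold changes were negative, with a list median of -0.20. Areg, which encodes amphiregulin, measured 19.1 and 17.0 in shOGT and 34.9 and 43.6 in ctrl. It was lower in both shOGT libraries by more than the spread within either group (log2 fold change -1.07 ± 0.29, limma adjusted p = 0.0705, and 0.0281 at a minimum value of 10). Tgfa, the gene of TGF-alpha and the most abundant of these ligands in signal per gene, measured 394 and 388 in shOGT and 487 and 436 in ctrl (-0.23 ± 0.08, adjusted p = 0.158). Btc, betacellulin, measured 13.8 and 9.43 in shOGT and 25.9 and 17.9 in ctrl (adjusted p = 0.266). Areg, Tgfa and Btc all had groups apart, as 24.3% of all genes did in this direction. Nrg2, another neuregulin, measured 67.0 and 101.8 in shOGT and 81.8 and 64.5 in ctrl (adjusted p = 0.729).

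Of the other secreted FGFs 1 of 8 tested passed, against 4.86% of all genes tested. Fgf1, a ligand of all FGF receptors, measured 3193 and 3879 in shOGT and 2632 and 2769.6 in ctrl. It rose by 0.38 ± 0.08 on the log2 scale (SE, adjusted p = 0.0255 in limma). Leaving out shOGT 2 gave 0.24, and leaving out shOGT 1 gave 0.52. The other 7 were low, with values from 0 to 18.9. The other 2 FGF receptor genes had 0 calls. Fgfrl1, a receptor without a kinase, measured 1644 and 1741 in shOGT and 1757 and 1696 in ctrl, and Fgfr4 stayed below 8 in all libraries. Of the 4 FGF homologous factors, which act inside the cell on sodium channels and not on FGF receptors, 0 passed. Fgf11 measured 422 and 341 in shOGT and 503 and 492 in ctrl (-0.39 ± 0.10, adjusted p = 0.0639), and Fgf12 286 and 292 in shOGT and 329 and 386 in ctrl (-0.30 ± 0.10, adjusted p = 0.13). Fgf11 passed at a minimum value of 10 (adjusted p = 0.014), without ctrl 1 (0.0337) and without ctrl 2 (0.016), and its log2 fold change was -0.24 without shOGT 2. Fgf12 passed without ctrl 1 (adjusted p = 0.033) and had a log2 fold change of -0.19 without ctrl 2. Fgf14 had a log2 fold change of -0.07. Fgf13 was low and variable, at 6.38 and 5.66 in shOGT and 10.97 and 2.98 in ctrl.

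FGFs and HB-EGF bind heparan sulfate, sugar chains carried by syndecans and glypicans that hold the ligand at its receptor. Of 25 coreceptors, carriers and enzymes of heparan sulfate, 6 fell and 0 rose, where 2.9% of all genes tested fell and 1.96% rose. The median log2 fold change was -0.16. Sdc1, syndecan 1, measured 653 and 629 in shOGT and 911 and 889.8 in ctrl (-0.49 ± 0.06, limma adjusted p = 0.00334). Gpc1, glypican 1, measured 1648 and 1576 in shOGT and 2099 and 2263 in ctrl (-0.44 ± 0.05, adjusted p = 0.00326). Ext2, a polymerase of the chain, measured 1990.3 and 1958 in shOGT and 2543 and 2499 in ctrl (-0.35 ± 0.04, adjusted p = 0.00327). In each of these 3 genes the gap between the groups was larger than the spread within them. Sdc3 (-0.25, adjusted p = 0.0158), Gpc6 (-0.36, adjusted p = 0.048) and Flrt2, a membrane protein that can bind FGF receptors (-0.44, adjusted p = 0.0444), fell as well, and the calls of Gpc6 and Flrt2 were also lost without ctrl 2 (adjusted p = 0.212 and 0.168). Exons of Gpc1 overlap Ankmy1, which stayed below 6 in all libraries.

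Of 8 genes that release EGF family ligands from the membrane, 1 rose and 2 fell. Over all genes tested, 1.96% rose and 2.9% fell. The metalloproteases Adam12, known to shed HB-EGF (-0.24 ± 0.05, limma adjusted p = 0.0187), and Adam17, which sheds TGF-alpha, amphiregulin and HB-EGF (-0.18 ± 0.04, adjusted p = 0.0483), were lower. Adam12 measured 6234 and 5767 in shOGT and 6924 and 7252 in ctrl. The call of Adam17 was lost when totals were equalized (adjusted p = 0.0583), without ctrl 1 (0.0979) and without ctrl 2 (0.181), and its exons overlap Iah1. Rhbdf1, an inactive rhomboid that brings ADAM17 to the cell surface, measured 1154 and 1172 in shOGT and 984 and 965 in ctrl (0.25 ± 0.05, adjusted p = 0.0294, and 0.0755 without ctrl 2).

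Inside the cell, 1 of 13 adaptors rose and 0 fell, where 1.96% of all genes tested rose and 2.9% fell. Gab1, a docking protein of EGFR and FGFR signalling, measured 1663 and 1627 in shOGT and 1387 and 1448 in ctrl (0.21 ± 0.05, limma adjusted p = 0.0425, and 0.179 or above without ctrl 1 or either shOGT library). Of 10 genes of receptor turnover and inhibition, Lrig1, a membrane protein that promotes the breakdown of ERBB receptors and marks quiescent stem cells, rose, at 12164 and 13227 in shOGT and 10858 and 11003 in ctrl (0.21 ± 0.04, adjusted p = 0.022). Eps15, an endocytic substrate of EGFR, fell (-0.23 ± 0.06, adjusted p = 0.0466, and 0.0541 when totals were equalized). Without ctrl 1 the adjusted p of Eps15 was 0.175.

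Of 14 genes listed as ERK targets or feedback genes, most of them inhibitors of the pathway, 3 rose and 0 fell. Over all genes tested, 1.96% rose and 2.9% fell. The log2 fold change was positive in 9 of the 14 listed genes and negative in 5, with a median of 0.11. In 8 of the 14 both shOGT libraries were higher than both ctrl libraries, against 25% of all genes tested. Dusp6, an ERK phosphatase, measured 7841 and 8062 in shOGT and 6363 and 6664 in ctrl (0.29 ± 0.04, limma adjusted p = 0.00423). Spred1, an inhibitor of RAS activation, measured 5657 and 5883 in shOGT and 4789 and 4825 in ctrl (0.26 ± 0.04, adjusted p = 0.00627). Dusp4, a nuclear phosphatase of ERK, measured 1208 and 1337 in shOGT and 1058 and 1069 in ctrl (0.26 ± 0.06, adjusted p = 0.0478, and 0.0535 without ctrl 1). In all 3 genes the gap between the groups was larger than the spread within either.

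**Figure D4:**
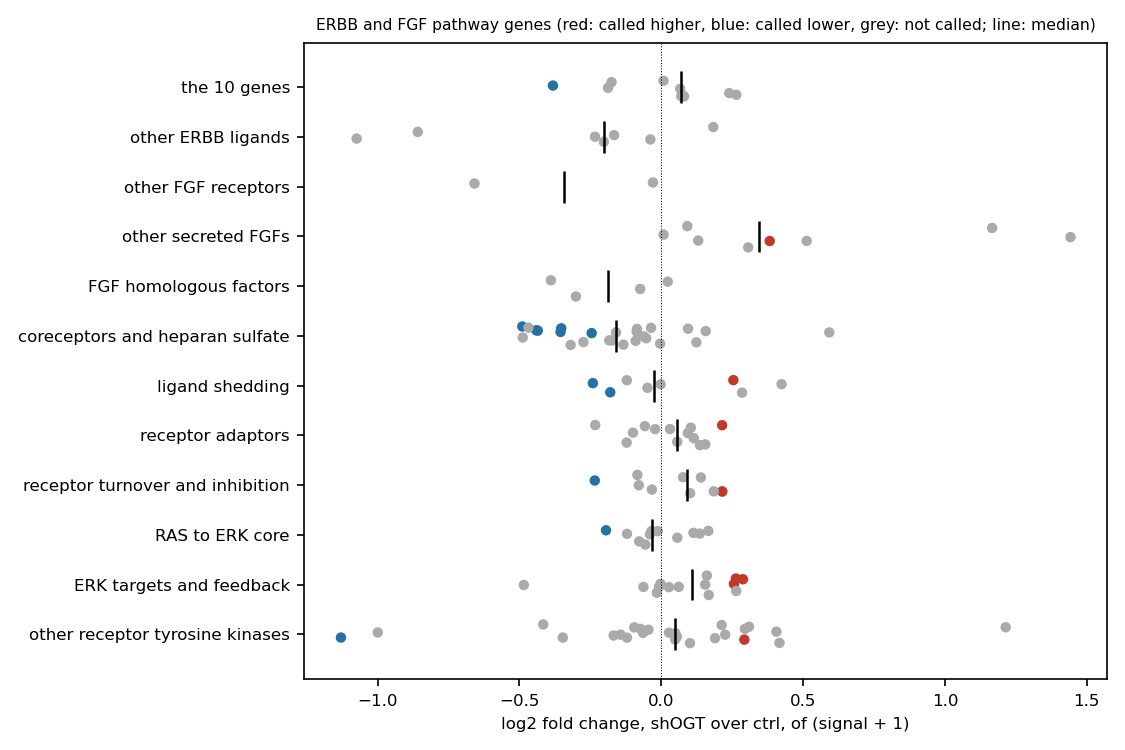
Log2 fold change of signal + 1, shOGT over ctrl, for the tested genes of each list (points), with the list median (black line), red for genes called higher and blue for genes called lower. The 6 calls among coreceptors and heparan sulfate genes lie below 0, and the 3 among ERK targets and feedback genes lie above it.

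For comparison, of 25 other receptor tyrosine kinase genes tested 1 rose and 1 fell, with a median log2 fold change of 0.05. Over all genes tested, 1.96% rose and 2.9% fell. Pdgfra, the PDGF receptor of oligodendrocyte progenitors, measured 132 and 137 in shOGT and 287 and 303 in ctrl (limma adjusted p = 0.0013). Axl, a receptor of GAS6, rose to 1211 and 1289.6 in shOGT, against 989 and 1051 in ctrl (0.29 ± 0.06, adjusted p = 0.0252, and 0.0545 without ctrl 1). No test of a difference between these 25 genes and the 10 was made.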

How the data were processed

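RNA sequencing libraries of shOGT (2) and ctrl (2) were compared, grouped by the titles in the labels. The authors deposited 1 normalized signal value per gene and library. Genome build mm10 is named per the submitters' processing notes, while aligner, counter, annotation, strand setting and normalization are not given in those notes or labels. The deposited signal values of a library were all whole multiples of 1 step (1.06 and 0.943 in shOGT, 0.997 and 0.992 in ctrl, within 0.01 of a step). This would imply 15697508 and 17753976 reads in shOGT and 16909316 and 17090949 in ctrl. No count model was run.

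Symbols and exon lengths came from GENCODE M21 (25250 of 25261 identifiers matched), and promoters from RefSeq (GRCm38.p6). limma 3.58.1 (R 4.3.3) with a variance trend was fitted, two-sided, on log2(signal + 1) for genes that reached 1 in 2 or more libraries. Fold changes are on that log2 scale and are therefore too small for low genes. Because steps differ, 1 read passes this minimum in shOGT 1 and in no other library. An exact permutation test of 2 against 2 cannot go below 0.333. Replicates differed by more than sampling noise (chi-square per gene of 3.33 in shOGT and 2.02 in ctrl, over genes of at least 20 summed reads) and were kept apart.

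The 10 genes and the lists were chosen with earlier results of these data known. All 10 genes were named, and from each other list every called gene or, with 0 called, up to 4 with the smallest p, except that some genes are not reported here. The fit was tested on simulated data, where it recovered 33.8% of genes changed by 0.3 on the log2 scale. At 0.5 it recovered 77.3%, and at 1 it recovered 100%. The changed genes were not low ones, and the spread was set rather than taken from these libraries. Alternatives were another pseudocount, other minimum values, 2 other scalings, no variance trend, the replicate number as a block and each library left out.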

Additional observations from a re-analysis of the deposited data

How the results depend on the processing

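As reported, 1060 genes passed, 1 of the 10 genes and 19 of the 127 other pathway genes. With no filter, with quantile normalization and without the variance trend these counts were 0, 0 and 0, while 4302, 3998 and 2763 genes had an unadjusted p under 0.05 in limma. At a minimum value of 10, which left 15475 genes to test, they were 1955, 2 (Erbb4 and Fgfr3) and 29. With 1 library left out they lay between 0 and 1220, 0 and 2, and 0 and 19. The cause of these differences was not tested. The replicate numbers are shared between the groups, and the deviations of same-numbered libraries correlated with r = 0.007 across genes, so that the numbers are not shown to pair the libraries. With the replicate number as a block the counts were 2302, 2 (Erbb4 and Fgfr3) and 33, and adjusted p was 0.000795 for Fgfr3, 0.0225 for Areg, 0.000393 for Fgf11 and 0.0342 for Fgf12. Of 437 values of 40 named genes under 11 alternatives, 296 kept direction and side of the threshold, 119 lost the call, 11 gained it and 11 changed sign. The changes of sign were in genes that did not pass. Erbb3 was -0.0402 with quantile normalization and -0.0615 to 0.0774 with 1 library left out, and Fgf13 was -0.0355 with a pseudocount of 5, -0.0315 with quantile normalization and -0.77 to 0.82 with 1 library left out. With 1 library left out Hbegf ranged from -0.0162 to 0.17, Nrg2 from -0.115 to 0.48, Fgfrl1 from -0.0708 to 0.0122 and Fgf14 from -0.21 to 0.0585. A lone library left in a group was assumed to vary like the other group. The planned tests on whole read counts were not run. The values of all 4 libraries were whole multiples of 1 step, which lies near 1 in ctrl. The normalization that gave these steps is not stated. Erbb3, at 4 steps in every library, is limited by depth.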
